A study of Mus musculus with 2 samples.

Results

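The mouse genes that encode the proteasome were taken as every gene whose symbol reads Psma, Psmb, Psmc, Psmd, Psme, Psmf or Psmg followed by a number. There were 48 such genes among the 28000 features counted in each library. They comprised 34 constitutive subunits (7 of the α ring, 4 non-catalytic and 3 catalytic of the β ring, 6 ATPases and 14 Psmd genes of the regulatory particle, which are its non-ATPase subunits and chaperones of its ATPase ring), the 3 immunoproteasome catalytic subunits Psmb8, Psmb9 and Psmb10, the tissue-restricted Psma8 of testis and Psmb11 of thymus, the activators Psme1 to Psme4, the inhibitor Psmf1 and the assembly chaperones Psmg1 to Psmg4. All 48 were counted in both libraries.

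Single-cell RNA sequencing was done on prostate tumors of 2 mouse genotypes, with 1 library each. DoubleTg mice (hHGFtg-hMETtg-PBCre) carry a human HGF transgene and a human MET transgene, and expression of the latter needs removal of a stop cassette by a probasin-driven Cre recombinase (PB-Cre4) of the prostatic epithelium. TripleTg mice (hHGFtg-hMETtg-Ctnnb1-PBCre) carry both transgenes and the same Cre together with a Ctnnb1 allele whose exon 3 the Cre removes, which stabilizes β-catenin. The labels call the DoubleTg tissue adenocarcinoma and the TripleTg tissue carcinoma, and give no age for the animals. Genotype, tumor type, animal and library therefore cannot be told apart, no test between genotypes was possible, and every interval below covers counting error only (95%, exact).

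The proteasome degrades ubiquitin-tagged proteins in a barrel of stacked α and β rings, the 20S core, which is capped by the 19S regulatory particle with its ring of ATPases and its ubiquitin-binding and deubiquitinating subunits. Of the β subunits, Psmb5 (β5), Psmb6 (β1) and Psmb7 (β2) cut peptides. In immune cells and in cells exposed to interferon, Psmb8, Psmb9 and Psmb10 take their places during assembly, and the resulting immunoproteasome yields peptides that are loaded on MHC class I molecules.

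After the study's limits on genes and mitochondrial UMIs, 10598 of 12072 DoubleTg cells and 9492 of 9492 TripleTg cells remained, with medians of 16761 and 20097 UMIs (unique molecular identifiers, 1 per captured transcript), and 29 barcodes occurred in both libraries. Clusters were named from marker genes as luminal-like (5049 DoubleTg and 4759 TripleTg cells), basal-like (1881 and 975), seminal vesicle-like (126 and 587), fibroblast-like (675 and 157), smooth muscle-like (66 and 103), endothelial-like (276 and 234), macrophage-like (493 and 434), dendritic-like (97 and 47), T and NK-like (434, DoubleTg), neutrophil-like (137, TripleTg) and glial-like (39 and 25). Clusters with 1462 and 1712 cells stayed unnamed, and 322 TripleTg epithelial-like cells were not divided into luminal and basal. At least 1 hMETtg UMI was found in 82.9% of DoubleTg luminal-like cells (median 35396 UMIs) and in 34.7% of TripleTg luminal-like cells (median 25735 UMIs), against 16.6% of DoubleTg macrophage-like cells (8527 UMIs) and 2.76% of TripleTg macrophage-like cells (10034 UMIs), in which the transgene should be silent. The 3′ counts do not cover exon 3 of Ctnnb1, so they do not check that allele. Levels are UMIs of a gene per 1000000 UMIs of a class (CPM). Since 3′ counting carries no length factor, levels are compared between classes and libraries for a gene, and the members of a catalytic pair are set against each other as a share of UMIs.

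The promoters of the genes on which the comparison of the 2 kinds of proteasome turns are shown for reference: Psmb8, Psmb9 and Psmb10 as immunosubunits, Psmb5 as the constitutive partner of Psmb8, and Psme1 as an activator subunit that was high in the same interferon-led clusters. Each window runs from 250 bases before to 50 bases after the RefSeq start (GRCm38.p6, 5′ to 3′ on the gene's strand): Psmb8 at chr17:34197945-34198244 (plus), Psmb9 at chr17:34187281-34187580 (minus), Psmb10 at chr8:105938343-105938642 (minus), Psmb5 at chr14:54617946-54618245 (minus) and Psme1 at chr14:55578244-55578543 (plus). Annotations differ in where these genes start: of the GENCODE M21 transcripts, 0 of 7 of Psmb8, 3 of 7 of Psmb9, 1 of 7 of Psmb10, 2 of 2 of Psmb5 and 7 of 13 of Psme1 start within the window shown. Capitals mark a match to 1 of the 3 motifs described next.
Psmb8: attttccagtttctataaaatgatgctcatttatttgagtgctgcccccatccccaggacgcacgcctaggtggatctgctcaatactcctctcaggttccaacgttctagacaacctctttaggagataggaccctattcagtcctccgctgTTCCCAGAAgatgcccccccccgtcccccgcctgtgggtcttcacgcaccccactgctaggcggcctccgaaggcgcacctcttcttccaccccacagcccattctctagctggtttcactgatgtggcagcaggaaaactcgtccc
Psmb9: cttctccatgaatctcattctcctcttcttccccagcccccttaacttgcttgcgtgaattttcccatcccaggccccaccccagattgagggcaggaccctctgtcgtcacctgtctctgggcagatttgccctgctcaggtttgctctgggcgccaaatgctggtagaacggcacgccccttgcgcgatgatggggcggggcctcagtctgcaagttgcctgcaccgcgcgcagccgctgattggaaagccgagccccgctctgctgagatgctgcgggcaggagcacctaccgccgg
Psmb10: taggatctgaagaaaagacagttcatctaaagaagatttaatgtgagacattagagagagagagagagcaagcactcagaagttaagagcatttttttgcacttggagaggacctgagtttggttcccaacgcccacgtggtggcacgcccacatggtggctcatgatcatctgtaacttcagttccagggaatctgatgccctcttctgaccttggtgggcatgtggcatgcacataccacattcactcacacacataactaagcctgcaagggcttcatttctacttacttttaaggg
Psmb5: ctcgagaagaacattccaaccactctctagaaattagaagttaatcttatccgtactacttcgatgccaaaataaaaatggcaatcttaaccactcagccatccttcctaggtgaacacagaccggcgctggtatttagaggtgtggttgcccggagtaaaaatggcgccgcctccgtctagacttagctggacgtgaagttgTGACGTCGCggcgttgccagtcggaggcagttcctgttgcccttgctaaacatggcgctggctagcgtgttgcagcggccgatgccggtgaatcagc
Psme1: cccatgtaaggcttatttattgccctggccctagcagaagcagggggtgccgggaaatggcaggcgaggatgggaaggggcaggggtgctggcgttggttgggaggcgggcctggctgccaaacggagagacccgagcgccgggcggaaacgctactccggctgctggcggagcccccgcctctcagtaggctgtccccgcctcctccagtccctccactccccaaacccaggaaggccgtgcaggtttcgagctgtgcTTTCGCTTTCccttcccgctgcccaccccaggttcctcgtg

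RefSeq promoters were matched for 40 of the 48 members (none for Psma8, Psmb1, Psmb2, Psmb7, Psmc3, Psmd3, Psmd7 and Psmg2), and 3 motifs were searched on both strands of all 32851 promoters. The interferon-response form (GAAA, any 2 bases, GAAA) was held by 3.44% of all promoters and by 5 of the 40 members (Psmb3, Psmd4, Psmd9, Psme1 and Psmg4). The STAT form TTCNNNGAA was held by 8.30% of promoters and by Psmb8, Psmd2 and Psmg1. The antioxidant-response form TGACNNNGC, to which NRF1 and NRF2 bind, was held by 12.4% of promoters and by 6 members (Psmb5, Psmb6, Psmc6, Psmd12, Psmd9 and Psme4). The Psmb9 and Psmb10 windows held none of these letters. The start of Psmb9 lay 226 bases from the start of Tap1, a subunit of the peptide transporter, which is read from the opposite strand, and the windows of the 2 genes shared 275 bases.

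The first question was how constitutive and immunoproteasome subunits are distributed over the cell classes. The immunosubunit share, which is the share of Psmb8, Psmb9 and Psmb10 in the UMIs of all 6 catalytic genes, ran from under 10% in basal-like cells to over 50% in dendritic-like cells, whereas the summed constitutive members differed less between classes. In DoubleTg the share was 6.72% (6.35 to 7.12%) in basal-like, 22.1% (21.9 to 22.3%) in luminal-like, 23.1% (19.4 to 27.1%) in smooth muscle-like, 23.7% (22.1 to 25.3%) in seminal vesicle-like, 27.8% (26.4 to 29.3%) in fibroblast-like, 34.5% (33.0 to 36.0%) in macrophage-like, 42.7% (40.3 to 45.1%) in endothelial-like, 48.8% (47.1 to 50.6%) in T and NK-like and 51.6% (49.2 to 54.1%) in dendritic-like cells. The intervals of luminal-like, smooth muscle-like and seminal vesicle-like cells overlapped, as did those of T and NK-like and dendritic-like cells. In TripleTg it was 7.43% (7.0 to 7.87%) in basal-like, 12.2% (12 to 12.4%) in luminal-like, 19.0% (16.6 to 21.7%) in neutrophil-like, 20.5% (18.2 to 22.9%) in smooth muscle-like, 28.3% (25.9 to 30.7%) in fibroblast-like, 31.1% (29.8 to 32.4%) in macrophage-like, 32.5% (31.7 to 33.3%) in seminal vesicle-like, 32.9% (30.8 to 35.0%) in endothelial-like and 56.1% (52.4 to 59.7%) in dendritic-like cells. Basal-like cells were lowest in both libraries. Dendritic-like cells were highest in TripleTg, but in DoubleTg their order with T and NK-like cells turned when cells were thinned to 5000 UMIs, to 50.4% in dendritic-like and 53.6% in T and NK-like cells. The intervals of macrophage-like, seminal vesicle-like and endothelial-like cells overlapped in TripleTg.

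**Figure D1:**
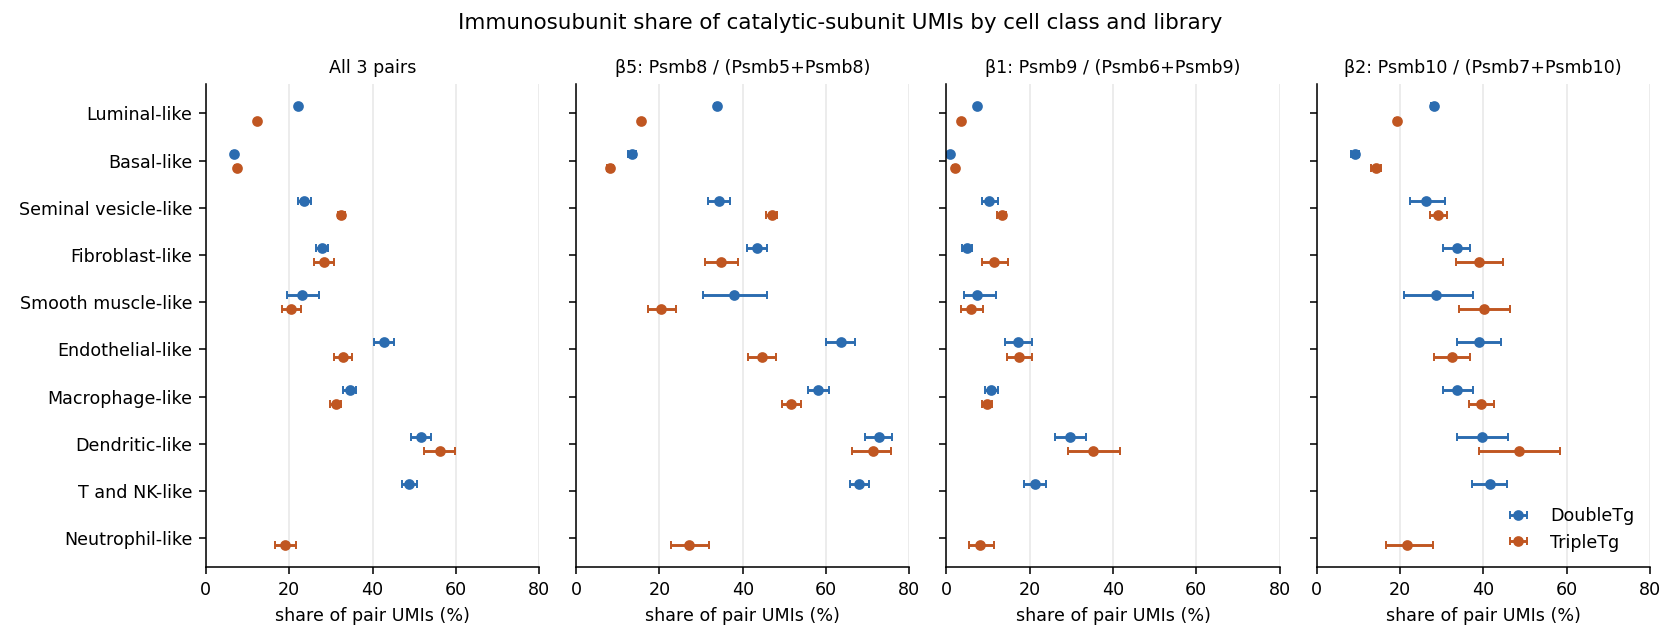
Immunosubunit share of catalytic-subunit UMIs (x axis, %) in each named class (rows), for all 3 pairs together and for each pair, with DoubleTg in blue and TripleTg in orange and bars for 95% Clopper-Pearson intervals. The luminal-like share was 22.1% in DoubleTg and 12.2% in TripleTg, and the basal-like shares of 6.72% and 7.43% are the lowest in the left panel.

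Each pair had its own range. For β5, the chymotrypsin-like site, Psmb8 made up 72.6% of the Psmb5 and Psmb8 UMIs in DoubleTg dendritic-like cells, 68.0% in T and NK-like, 63.5% in endothelial-like, 58.1% in macrophage-like, 33.7% in luminal-like and 13.4% in basal-like cells. In TripleTg the same share was 71.1% in dendritic-like, 51.6% in macrophage-like, 44.7% in endothelial-like, 15.6% in luminal-like and 8.09% in basal-like cells. Psmb8 therefore outnumbered Psmb5 in dendritic-like cells of both libraries, whereas in TripleTg macrophage-like cells the interval of 49.3 to 53.9% included an even share, and thinning to 5000 UMIs gave 49.8%. Psmb9 stayed the minor member of the β1 pair in every named class, at most 29.7% in DoubleTg and 35.2% in TripleTg, both in dendritic-like cells, and 7.43% and 3.42% in luminal-like cells. Psmb10, the β2 immunosubunit, made up 41.5% of its pair in DoubleTg T and NK-like cells, 28.1% and 19.3% in luminal-like cells of DoubleTg and TripleTg, and 48.6% in TripleTg dendritic-like cells.

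In levels, Psmb8 was at 323 CPM in DoubleTg and 494 CPM in TripleTg dendritic-like cells, at 183 and 184 CPM in macrophage-like cells, at 90.9 and 39.0 CPM in luminal-like cells and at 25.9 and 20 CPM in basal-like cells. Psmb9 was at 102 and 151 CPM in dendritic-like cells and at 2.13 and 4.37 CPM in basal-like cells. Psmb10 was at 59.6 and 96.6 CPM in dendritic-like cells and at 13.8 and 20.7 CPM in basal-like cells. In the heat map of member levels Psmb9 and Psmb8 had the widest spread over the classes, and Psmb10 spread about as far as the chaperones Psmg1 and Psmg2, which were low in dendritic-like cells. The 34 constitutive members summed to 5720 and 5703 CPM in basal-like cells, 4522 and 5296 CPM in luminal-like, 4159 and 4944 CPM in macrophage-like and 4029 and 5151 CPM in dendritic-like cells, and were lowest in seminal vesicle-like cells, at 3733 and 2936 CPM.

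**Figure D2:**
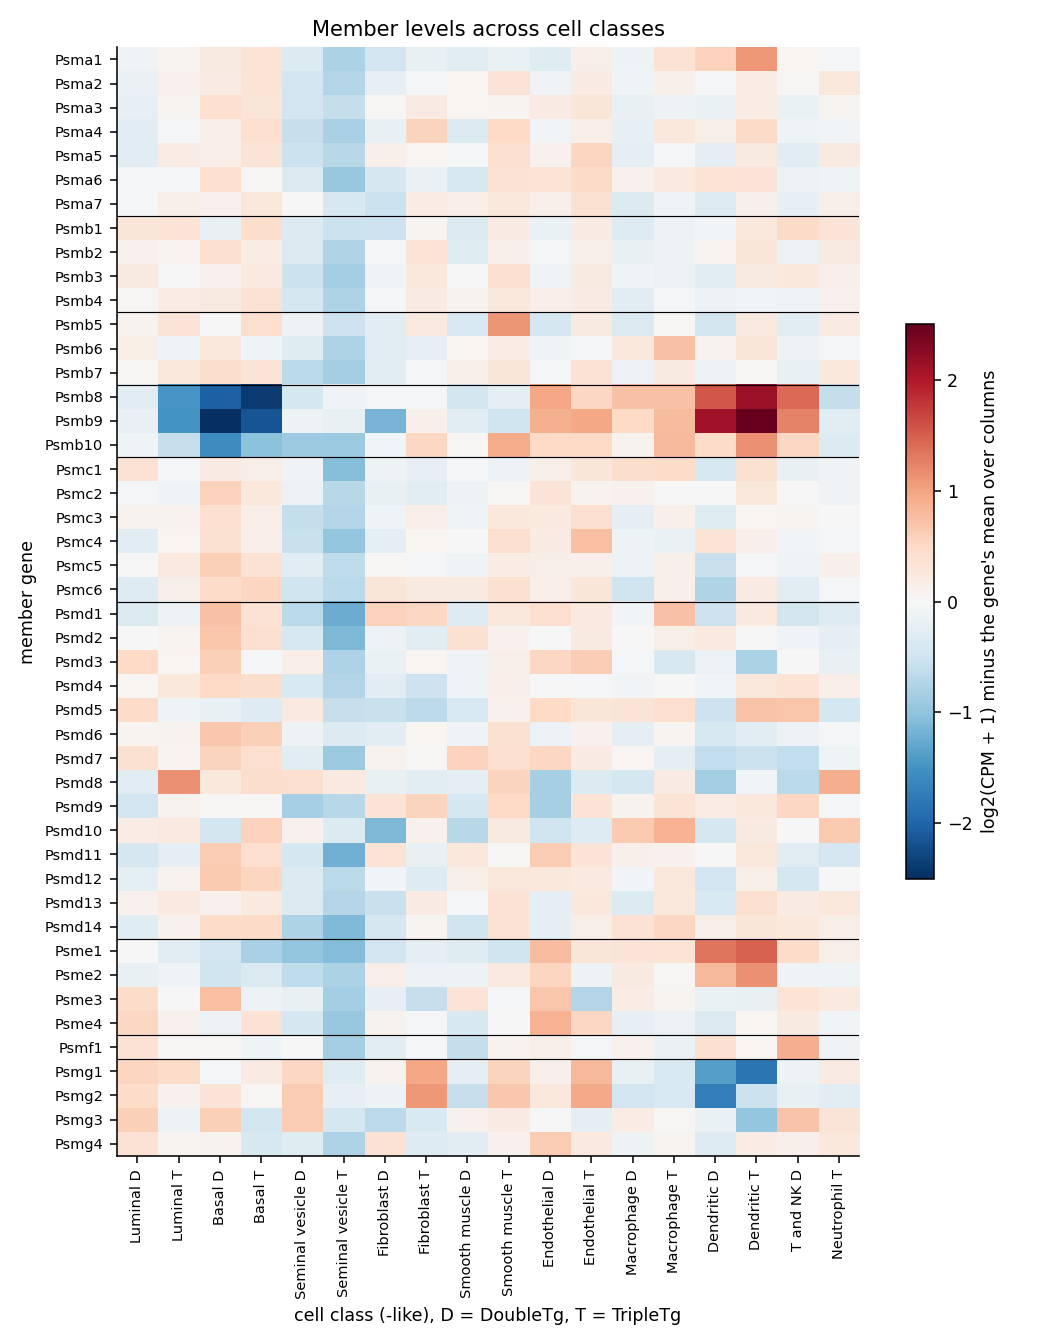
Level of 46 members (rows, grouped by role between the black lines) in each named class and library (columns, D for DoubleTg and T for TripleTg), as log2(CPM + 1) minus the mean of that gene over the columns, with Psmb11 and Psma8 left out. Psmb8 and Psmb9 span the color scale, low in basal-like cells (25.9 and 2.13 CPM in DoubleTg) and high in dendritic-like cells (323 and 102 CPM). Psmd8 is highest in TripleTg luminal-like cells (762 CPM), followed by TripleTg neutrophil-like (649 CPM) and smooth muscle-like cells (509 CPM).

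Values that bear on free RNA and on droplets with more than 1 cell were read in the same classes. In DoubleTg, hMETtg was at 492 CPM in luminal-like cells, and at 151 CPM in T and NK-like and 121 CPM in both macrophage-like and endothelial-like cells. In TripleTg it was at 26.5 CPM in luminal-like, 3.05 CPM in macrophage-like and 12.3 CPM in endothelial-like cells. TripleTg neutrophil-like cells had 32.3 CPM of hMETtg, with a UMI in 12.4% of 137 cells, which is above the luminal-like level. The sum of 5 pan-immune markers was 83.7 CPM in DoubleTg and 880.1 CPM in TripleTg luminal-like cells, of which Cd52 gave 80.3 and 870 CPM and the defining Ptprc 0.67 and 1.69 CPM. The sum in luminal-like cells was therefore nearly all Cd52. In macrophage-like cells the pan-immune sum was 3405 and 4809 CPM. The part of these values in the immunosubunit shares was not tested.

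The comparison of TripleTg with DoubleTg was centred on luminal-like cells, the largest epithelial-like class. The immunosubunits were lower in TripleTg and the constitutive members slightly higher. Psmb8 was at 90.9 CPM in DoubleTg and 39.0 CPM in TripleTg, a log2 ratio of -1.22 (-1.26 to -1.18). Psmb9 was at 20.1 and 7.53 CPM, a log2 ratio of -1.42 (-1.51 to -1.32). Psmb10 was at 39.9 and 28.8 CPM, and its log2 ratio of -0.47 (-0.52 to -0.42) was inside 1.5-fold. The sum of the 3 was 151 CPM in DoubleTg and 75.4 CPM in TripleTg, a log2 ratio of -1.0 (-1.03 to -0.97). Their constitutive partners did not move together: Psmb5 was at 179 and 211 CPM (log2 ratio 0.24), Psmb7 at 102 and 120.1 CPM (0.23) and Psmb6 at 250.4 and 212 CPM (-0.24).

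The 34 constitutive members summed to 4522 CPM in DoubleTg and 5296 CPM in TripleTg luminal-like cells, a log2 ratio of 0.23 (0.22 to 0.23), with 24 members above and 10 below a ratio of 1. Much of this lay in a single gene, Psmd8, a non-ATPase subunit of the lid of the regulatory particle (chromosome 7, 29174188 to 29180701, minus strand, GRCm38). Psmd8 was at 287 CPM in DoubleTg and 762 CPM in TripleTg, a log2 ratio of 1.41 (1.39 to 1.42). Without it, the other 33 summed to 4235 and 4534 CPM, a log2 ratio of 0.10 (0.09 to 0.10). No annotated gene overlapped Psmd8. By group, the α ring had a log2 ratio of 0.23, the non-catalytic β subunits 0.00, the catalytic subunits 0.03, the ATPases 0.11 and the non-ATPase subunits 0.48, the last with Psmd8 included. TMM scaling lowered each of these values by 0.05, to -0.05 for the non-catalytic and -0.02 for the catalytic β subunits, which thus had no direction that held under both scalings. No member of the α ring, of the non-catalytic or constitutive catalytic β subunits or of the ATPases differed by 1.5-fold.

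Apart from Psmd8, and leaving out the catalytic subunits described above, the constitutive members with the highest log2 ratios were Psmd9, an assembly chaperone of the ATPase ring (21.1 and 31.7 CPM, 0.58), Psmc6, an ATPase (78.5 and 108 CPM, 0.47), Psma5 of the α ring (0.46) and Psmd14, the deubiquitinase of the lid (37.7 and 50.9 CPM, 0.43). The lowest were Psmd5, a further ATPase assembly chaperone (16.6 and 10.9 CPM, -0.60), Psmd3 (95.5 and 69.4 CPM, -0.46) and Psmd7 (-0.33) of the lid, the ATPase Psmc1 (73.5 and 55.4 CPM, -0.41) and the non-catalytic β subunit Psmb3 (-0.24). Psmd5 lay just past and Psmd9 just short of the 1.5-fold limit. Of the 46 members with at least 5 CPM in either library, 1 was higher (Psmd8) and 4 were lower (Psmb8, Psmb9, Psmd5 and Psmg3) by at least 1.5-fold, with a median log2 ratio of 0.06. Over all 9063 genes at that level 19.8% were higher and 22.7% lower, with a median of -0.02. The members past the limit were thus a smaller share than that of all genes.

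**Figure D3:**
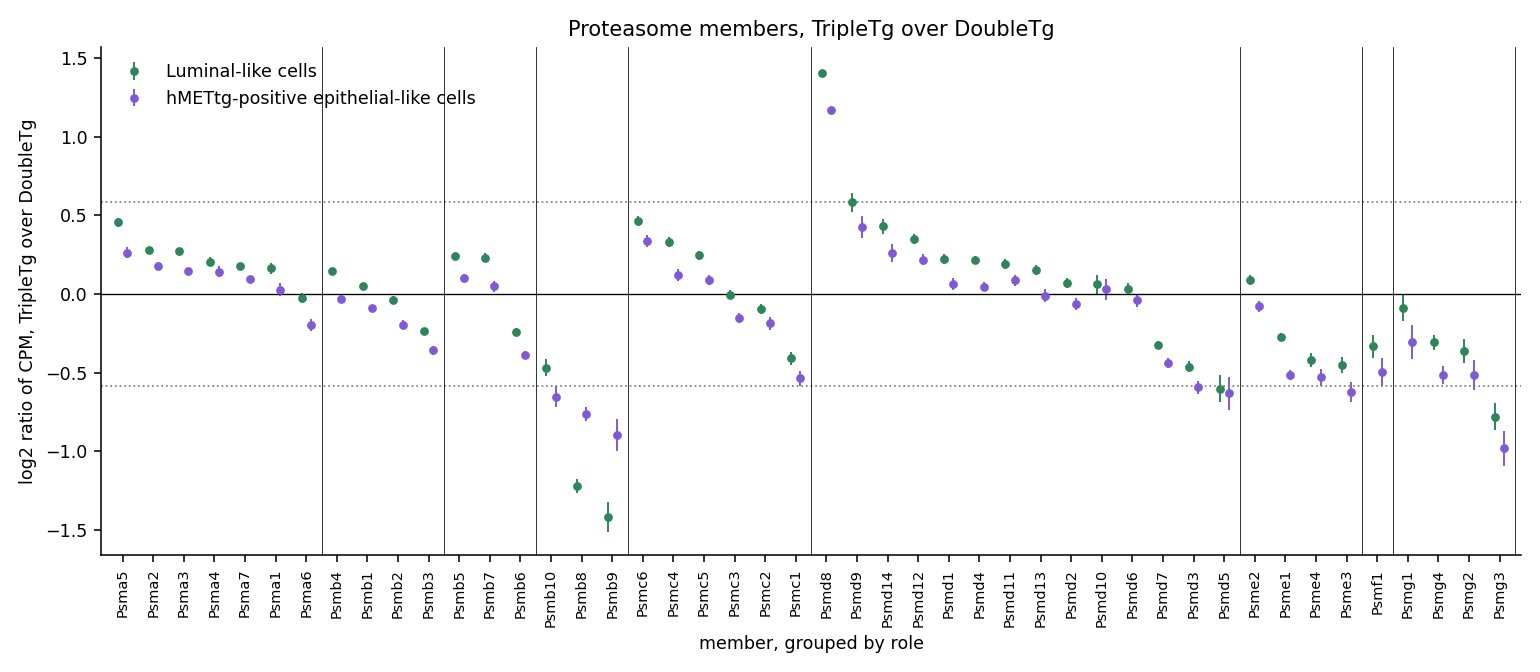
Log2 ratio of CPM, TripleTg over DoubleTg (y axis), for each member with at least 5 CPM (x axis, grouped by role between the vertical lines), in luminal-like cells (green) and in epithelial-like cells with at least 1 hMETtg UMI (purple), with bars for 95% counting intervals and dotted lines at 1.5-fold. Psmd8 is the highest point (1.41 and 1.17), and Psmb8 and Psmb9 are the lowest in luminal-like cells (-1.22 and -1.42).

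The activators and the inhibitor were within 1.5-fold, and all but Psme2 were below a ratio of 1. Psme1 and Psme2 form the PA28αβ cap that interferon induces together with the immunosubunits. In luminal-like cells Psme1 was at 183 CPM in DoubleTg and 152 CPM in TripleTg (log2 ratio -0.27) and Psme2 at 108 and 115 CPM (0.09). Psme3, the nuclear PA28γ, was at 43.1 and 31.5 CPM (-0.45), Psme4, the PA200 activator, at 60.8 and 45.4 CPM (-0.42) and Psmf1, the PI31 inhibitor, at 20.4 and 16.2 CPM (-0.33). The chaperones that assemble the α ring had log2 ratios of -0.09 for Psmg1, whose interval reached 0.00, -0.36 for Psmg2, -0.78 for Psmg3 (18.2 and 10.6 CPM) and -0.31 for Psmg4, of which Psmg3 was past 1.5-fold. By class, Psme1 was highest in dendritic-like cells, at 468 CPM in DoubleTg and 511 CPM in TripleTg, and lowest in seminal vesicle-like cells, at 92.8 and 86.5 CPM.

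The tissue-restricted members were near 0. Psmb11, the β5 subunit of the thymic cortex, had 3 UMIs in DoubleTg luminal-like, 1 in DoubleTg basal-like and 4 in TripleTg luminal-like cells. Psma8, the α subunit of testis, had 5 UMIs over all DoubleTg and 18 over all TripleTg cells, 0 of them in luminal-like cells, and reached its highest level of 4.01 CPM from 5 UMIs in TripleTg smooth muscle-like cells.

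The luminal-like class was not uniform, so the same quantities were read cluster by cluster. Of 11 luminal-like clusters in DoubleTg the immunosubunit share ran from 15.7 to 46.3% with a median of 21.3%, and of 8 in TripleTg from 3.52 to 39.7% with a median of 9.35%. The highest cluster of each library was led by interferon-induced genes and is described separately. Of the other clusters, 5 of 7 in TripleTg were below all 10 of DoubleTg in the share, and the remaining ones had 16.1 and 16.3%. Psmb9 was lower in all 7 TripleTg clusters (1.81 to 10.2 CPM) than in any of the 10 DoubleTg clusters (10.7 to 35.5 CPM), Psmb8 in 5 of 7 and Psmb10 in 2 of 7. Psmd8 was higher in all 7 (634 to 846 CPM) than in any of the 10 (131 to 514 CPM). How many of all genes separate the clusters of the 2 libraries in this way was not counted. The counts are therefore not read as particular to these members. Clusters of a library are not replicates of a genotype, and these counts are a description.

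**Figure D4:**
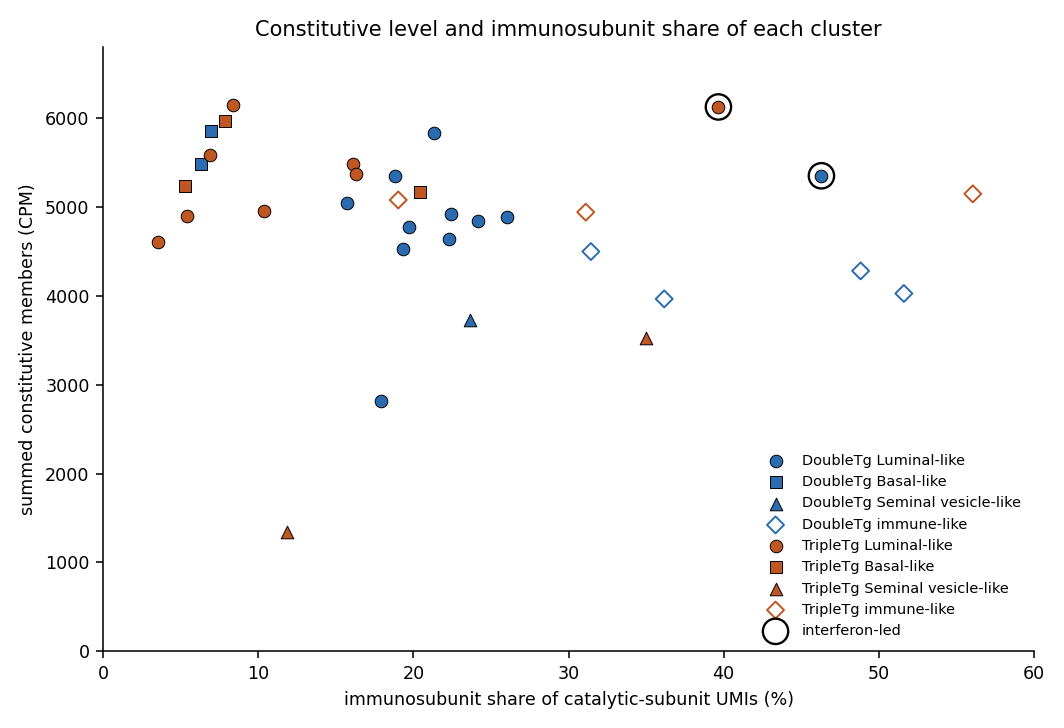
Summed CPM of the 34 constitutive members (y axis) against the immunosubunit share of catalytic UMIs (x axis, %) for each epithelial-like and immune-like cluster, with DoubleTg in blue, TripleTg in orange, shapes for classes and rings around the interferon-led clusters. Most TripleTg luminal-like circles lie to the left of the DoubleTg ones, and the ringed clusters are at 46.3% and 39.7%.

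The lowest luminal-like share, 3.52% (3.13 to 3.93%), was in a TripleTg cluster of 438 cells led by Tchh, Fabp4 and Cnfn, with Psmb8 at 8.57 CPM. Next came a cluster of 531 cells led by Gm15308 and Lypd2 (5.39%) and 1 of 466 cells led by Lap3 and Apoc4 (6.87%). In DoubleTg the highest share outside the interferon-led cluster was 26.0%, in 828 cells led by Alb, Reg3b and Fxyd4. The constitutive sum varied from 2818 CPM, in 569 DoubleTg cells led by the secretory genes Sbpl and Sbp with Psmd8 at 131 CPM, to 6147 CPM in a TripleTg cluster. Basal-like clusters had shares of 6.28 and 6.97% in DoubleTg and of 5.29, 7.86 and 20.4% in TripleTg, the last in 89 cells led by Clca3a2.

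To compare like with like, luminal-like clusters that shared at least 3 leading genes between libraries were paired, a choice made after the clusters were seen. The pair led by Tgm4 and Pbsn, secretory products of the prostate, had shares of 15.7% (15.1 to 16.3%, 567 cells) in DoubleTg and 16.1% (15.5 to 16.6%, 1033 cells) in TripleTg. There Psmb8 was at 61.9 and 50.7 CPM (log2 ratio -0.29), Psmb9 at 17.3 and 8.90 CPM (-0.96) and Psmb10 at 34.1 and 41.8 CPM (0.29), while the constitutive Psmb6 and Psmb7 had log2 ratios of -0.26 and -0.30. The pair led by Msln and Ly6d had shares of 22.4% (21.9 to 22.9%, 927 cells) and 10.3% (9.89 to 10.8%, 878 cells). Its log2 ratios were -1.74 for Psmb8 (102 and 30.3 CPM), -1.81 for Psmb9 (17.4 and 4.98 CPM) and -1.07 for Psmb10. Psmb9 reached 5 CPM in this pair through DoubleTg alone, the library where it was higher, so little is read from its call. The dividing pair, led by Ube2c and Top2a, had shares of 21.3% (114 cells) and 8.36% (332 cells). The immunosubunit difference thus varied between pairs, whereas Psmd8 was higher in TripleTg in each, with log2 ratios of 1.02, 1.16 and 0.65. The remaining pair, led by interferon-induced genes, had shares of 46.3% (113 cells) and 39.7% (143 cells), with log2 ratios of -0.42 for Psmb8, -0.85 for Psmb9, -0.19 for Psmb10 and 1.38 for Psmd8.

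In the Tgm4 and Pbsn pair, 2 of 46 members were higher and 7 lower by 1.5-fold, against 17.9% and 28.3% of genes, and in the Msln and Ly6d pair 1 was higher and 7 lower, against 18.6% and 26.9%. The constitutive sum had log2 ratios of 0.12 and 0.01. In the Msln and Ly6d pair Cd52 was at 106 CPM in DoubleTg and 1727 CPM in TripleTg, and B2m, the light chain of MHC class I, had a log2 ratio of -4.96, with -2.98 in the Tgm4 and Pbsn pair.

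Each library held a luminal-like cluster led by interferon-induced genes (Ifit1, Ifit3, Rsad2, Isg15 and Cmpk2 among them), with 113 DoubleTg and 143 TripleTg cells. Since members were kept out of the clustering but genes that move with interferon were not, the values are a description. The immunosubunit share was 46.3% (45.0 to 47.6%) against 21.1% in the other luminal-like cells of DoubleTg and 39.7% (38.1 to 41.2%) against 11% in TripleTg. In DoubleTg Psmb8 was at 308 against 85.2 CPM (log2 ratio 1.85), Psmb9 at 82.0 against 18.5 CPM (2.15) and Psmb10 at 122 against 37.8 CPM (1.69). In TripleTg Psmb8 was at 230 against 33.7 CPM (2.77), Psmb9 at 45.5 against 6.47 CPM (2.82) and Psmb10 at 107 against 26.6 CPM (2.0). The difference of the immunosubunits from the remaining cells was larger in TripleTg, where the remaining cells were lower.

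The same clusters divided the activators. Psme1 had log2 ratios of 1.05 in DoubleTg and 1.17 in TripleTg, and Psme2 of 1.28 and 1.22, while Psme3 had 0.08 and -0.09 and Psme4 -0.10 and -0.14. The summed constitutive catalytic subunits had 0.16 and 0.10, and all constitutive members together 0.25 and 0.22. With TMM scaling these were 0.09 and -0.09 for the catalytic subunits and 0.17 and 0.03 for all constitutive members. Past 1.5-fold were 6 of 46 members in DoubleTg (the 3 immunosubunits, Psme1, Psme2 and Psmf1, the last at 31.8 against 20.1 CPM) and 5 in TripleTg (the same without Psmf1), all higher, against 10.9% and 14.9% of genes higher and 5.81% and 7.88% lower. Psme2b, a near-identical copy of Psme2 that could share its reads, was at 5.37 against 0.46 CPM and at 2.26 against 0.32 CPM. Ptprc, the pan-leukocyte marker, had a UMI in 0.885% of the DoubleTg and 2.10% of the TripleTg cells of these clusters.

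**Figure D5:**
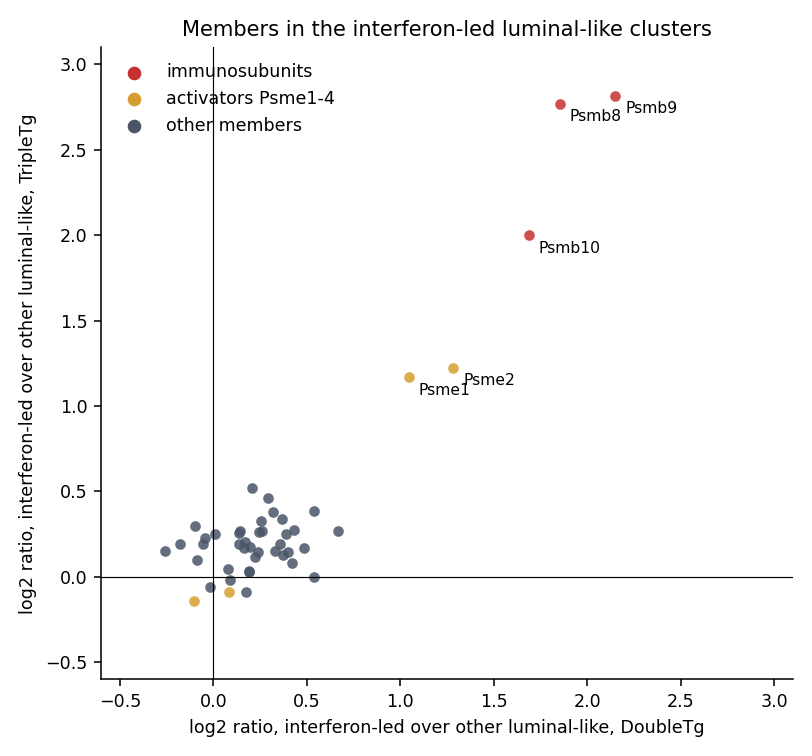
Log2 ratio of CPM of the interferon-led cluster over the other luminal-like cells, with DoubleTg on the x axis and TripleTg on the y axis, 1 point for each member with at least 5 CPM. Psmb8, Psmb9, Psmb10, Psme1 and Psme2 lie apart from the other members in both libraries, between 1.05 and 2.82, and the activators Psme3 and Psme4 lie with the constitutive members.

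Basal-like cells had similar sums in both libraries, but the immunosubunits went different ways. Psmb8 had a log2 ratio of -0.37 (-0.55 to -0.20), Psmb10 of 0.58 (0.38 to 0.78) and Psmb9 of 1.04 (0.55 to 1.53), the last at 2.13 and 4.37 CPM and thus under the 5 CPM needed to be counted. The immunosubunits summed to 41.8 CPM in DoubleTg and 45.0 CPM in TripleTg, a log2 ratio of 0.11 (-0.02 to 0.23), and the constitutive members to 5720 and 5703 CPM. Psmd8 was at 413 and 465 CPM (0.17). Of 45 members, 2 were higher (Psmd10, at 16.7 and 35.0 CPM, and Psmb1, at 254 and 394 CPM) and 3 lower (Psmd3, -0.63, Psme3, -0.93, and Psmg3, -1.15) by 1.5-fold, against 24.0% and 26.5% of 9091 genes. Psmd10, gankyrin, is a chaperone of the ATPase ring. Psmd10 and Psmb1 were named after their values were seen.

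Among epithelial-like cells with at least 1 hMETtg UMI (4517 in DoubleTg and 2446 in TripleTg), the share was 22.0% (21.8 to 22.2%) in DoubleTg and 15.4% (15.1 to 15.7%) in TripleTg. These groups differed in make-up: seminal vesicle-like cells, with shares of 23.7 and 32.5%, were 41 of the 4517 DoubleTg and 406 of the 2446 TripleTg cells, and hMETtg-positive luminal-like cells had shares of 22.3 and 11.5%. Psmb8 was at 91.2 and 53.9 CPM (-0.76), Psmb9 had a log2 ratio of -0.90 and Psmb10 of -0.65. Psmd8 was at 297 and 668 CPM (1.17), and the constitutive sum had 0.08, or -0.04 without Psmd8. In these cells 1 of 46 members was higher and 7 were lower, against 16.5% and 26.1% of genes. The lower ones were the 3 immunosubunits, Psmg3 (-0.98), Psmd5 (-0.63), Psme3 (-0.62) and Psmd3 (-0.59). Of these Psmd5 (highest value -0.55), Psme3 (-0.57) and, with TMM, Psmd3 came within 1.5-fold under an alternative.

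Within a library, luminal-like cells with hMETtg had a share of 22.3% against 20.7% without in DoubleTg, and of 11.5% against 12.7% in TripleTg. No member differed by 1.5-fold in either library, where 6.23% and 2.0% of genes were higher and 3.42% and 0.870% lower. Cells with hMETtg were the deeper ones, with medians of 37084 against 23679 UMIs in DoubleTg and 33713 against 22943 UMIs in TripleTg. Over cells under 10000, of 10000 to 30000 and above 30000 UMIs the share was 23.7, 24.5 and 21.5% in DoubleTg luminal-like cells and 17.1, 12.6 and 11.8% in TripleTg ones, so it was lower in TripleTg at each depth.

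Cycling luminal-like cells had UMIs of at least 3 of 15 proliferation genes after thinning to 5000 UMIs, with shallower cells left out. They numbered 59 in DoubleTg, beside 4809 other cells, and 322 in TripleTg, beside 4299. Their constitutive members were higher than in other luminal-like cells, with log2 ratios of 0.41 in DoubleTg (34 of 34 above a ratio of 1) and 0.25 in TripleTg (33 of 34), beside medians of 0.25 and 0.04 over all genes. With TMM scaling the values were 0.09 (28 of 34) and 0.17 (32 of 34). Past 1.5-fold were 10 members in DoubleTg and 5 in TripleTg, where 25.8% and 13.0% of genes were higher and 5.49% and 5.90% lower. With TMM scaling 1 of the 10, Psmb9, and 3 of the 5, Psma1, Psmg1 and Psmg2, were past it. In TripleTg the 5 were Psma1 (0.72), Psma4 (0.65) and the chaperones Psmg1 (0.82), Psmg2 (0.94) and Psmg3 (0.61), of which Psma1 and Psma4 were named after their values were seen. The immunosubunit share was 24.6% against 22.1% in DoubleTg and 8.39% against 12.6% in TripleTg. In DoubleTg the pan-immune sum was also higher in cycling cells, at 181 against 82.4 CPM, and its part was not tested.

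In the other classes the direction varied. Macrophage-like cells had 5 of 46 members higher in TripleTg and 0 lower (20% and 15.9% of genes), among them Psmb10 (46.2 and 76.9 CPM, 0.73) and Psmd8 (254 and 395 CPM, 0.64), but with TMM scaling only Psmb10 and Psmd1 of these 5 were past 1.5-fold. Endothelial-like cells had a share of 42.7% in DoubleTg and 32.9% in TripleTg, with Psmb5 higher (0.66) and Psme2 (-0.67) and Psme3 (-1.46) lower, and 4 members higher and 2 lower (23.7% and 17.9% of genes). Fibroblast-like cells had 8 higher and 1 lower (27.2% and 21.6%), with Psmb9 at 9.76 and 25.2 CPM. Smooth muscle-like cells had 12 higher and 0 lower (26.6% and 26.6%), with Psmb5 at 130.4 and 363 CPM. Dendritic-like cells had 12 of 45 higher and 2 lower (35.1% and 11.4%), which became 3 and 3 with TMM scaling. Psmd8 had log2 ratios of 0.80 in smooth muscle-like, 0.77 in dendritic-like, 0.49 in endothelial-like and -0.10 in fibroblast-like cells. With TMM scaling its dendritic-like value was 0.47. In seminal vesicle-like cells Psmd8 was at 457 CPM in DoubleTg and 409 CPM in TripleTg. Seminal vesicle-like cells had 0 higher and 12 lower (7.52% and 40.9%), with a constitutive log2 ratio of -0.35 beside a median of -0.46 over all genes. With TMM scaling 2 were higher and 1 lower, and the constitutive log2 ratio was 0.14. Their TripleTg clusters differed, with 3531 CPM of constitutive members in 443 cells led by Crisp1 and 1338 CPM in 144 cells led by Sva.

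Genes that work beside the proteasome were taken from 3 fixed lists in luminal-like cells. Of 19 partners, 2 were higher in TripleTg, Nfe2l3 (8.48 and 20.4 CPM, 1.27) and Nfe2l2 (74.7 and 124 CPM, 0.73), which encode NRF3 and NRF2, and 2 were lower, the ubiquitin receptor Adrm1 (118 and 60.5 CPM, -0.97) and the ubiquitin gene Ubb (-0.91), with a median of -0.05. Of 10 antigen presentation genes 9 were tested and 8 were lower, with a median of -1.14. B2m was at 3836 and 364 CPM (-3.40), the class I heavy chain H2-K1 at 1363 and 358 CPM (-1.93), and the peptide transporter subunits Tap1 at 13.5 and 4.78 CPM (-1.50) and Tap2 at 28.2 and 12.6 CPM (-1.17). Tapbp, at -0.44, was the 1 inside 1.5-fold. Of 12 interferon genes 1 was higher (Ifngr2, 0.80) and 3 lower (Irf7, at 47.9 and 13.3 CPM, Stat2, at 8.32 and 2.29 CPM, and Gbp2, at 5.64 and 2.14 CPM), with a median of 0.11, and Irf1 (0.51) was inside the limit. Tap1, Stat2 and Gbp2 reached 5 CPM through DoubleTg alone, the library where they were higher, so little is read from their calls. These counts stand beside the 19.8% of genes higher and 22.7% lower. In basal-like cells 4 of 9 antigen presentation genes were lower, beside 26.5% of all genes lower there, with B2m at -0.98. Nfe2l3 was at 1.67 and 15.1 CPM there. It reached 5 CPM through TripleTg alone, the library where it was higher, so little is read from this difference.

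Among the genes whose levels were most like the summed immunosubunits over 51 clusters of both libraries were, by Spearman's coefficient, H2-D1 (0.87), Tap1 (0.85), H2-Q7 (0.85), Tap2 (0.84), Isg15 (0.81), Ifi35 (0.81), Bst2 (0.80), H2-Q6 (0.79) and Samhd1 (0.79), out of 5274 genes. Psme1 came at rank 18 (0.74) and Psme2 at rank 21 (0.73). Over the 28 epithelial-like clusters the first 10 of 4847 genes were H2-T22 (0.92), Irf7 (0.92), Tap2 (0.91), H2-D1 (0.90), Stk39 (0.90), Ifi35 (0.90), H2-K1 (0.88), Bst2 (0.88), Isg15 (0.87) and Lgals3bp (0.86). Clusters of a library share its depth and free RNA, and the coefficients are a description.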

How the data were processed

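The authors dissociated prostate tumors with collagenase and TrypLE and prepared libraries with 10x Genomics 3′ v3 chemistry. They deposited raw UMI counts per gene and cell, aligned to mm10. The submitters' processing notes name Cell Ranger 6.0.2, while the DoubleTg matrix header names 6.1.1 and the TripleTg header none. The study's cell limits were used: between 200 and 7000 genes, with mitochondrial UMIs below 15%. In DoubleTg this left more cells than the methods state, in TripleTg the same number. Total UMIs were 256880958 and 229655259.

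Each library was clustered with scanpy 1.11.5 (2000 variable genes, 20 components, 15 neighbours, Leiden resolution 1), without the members and the pathway genes. Clusters were named "-like" from marker lists, by thresholds set after the clusters were seen (at least 3 markers raised and a mean log2 fold of 2, or 1.5 with a marker among the top 10 genes). A difference from the study may come from these rebuilt names. Trbc2 was the 1 marker not found. Doublets were left in. Scrublet called 333 of 10598 cells (3.14%) in DoubleTg and 0 of 9492 in TripleTg, so the call was not used there. All TripleTg cells deposited were within the study's limits.

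UMIs were summed per class and scaled to CPM with numpy 2.4.6. Ratios have conditional binomial, shares Clopper-Pearson and counts Poisson intervals (95%, scipy 1.17.1), which cover counting error only. Changes of 1.5-fold were counted over the members, and over all genes, that reached 5 CPM in 1 of the groups compared, and a count of 0 allows up to 3 counts. TMM factors came from edgeR 4.0.16 (R 4.3.3). The scripts were tested on simulated data. Coordinates are from GENCODE M21 (GRCm38) and promoters from RefSeq (GRCm38.p6). Interferon-led means at least 5 interferon-induced genes among the top 10. Likeness used clusters of at least 30 cells and genes averaging at least 20 CPM.

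Genes named are the catalytic subunits, regulators, chaperones, members under 5 CPM everywhere, the 5 highest and 5 lowest other members in luminal-like cells, the pathway lists and the 10 genes most alike, of which 1 is not reported here. The members and lists were chosen with earlier results of these data known. Alternatives were thinning to 5000 UMIs, doublet removal, stricter cell limits, other resolutions, equal weight per cell, TMM scaling, other CPM minimums and an hMETtg limit of 2 UMIs, with 5 more chosen after seeing the data.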

Additional observations from a re-analysis of the deposited data

Results flagged for a closer look

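Some differences had opposite directions in 2 libraries or classes. With 1 library per genotype, the difference was not tested in any of them.

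Luminal-like cells with hMETtg, set against those without, had log2 ratios of 0.25 in DoubleTg and -0.24 in TripleTg for the summed immunosubunits, of 0.095 and -0.080 for the constitutive members, of 0.20 and -0.16 for Psme1 and Psme2 together and of 0.083 and -0.17 for the assembly chaperones. All are inside 1.5-fold. Within the Tgm4 and Pbsn clusters alone the constitutive value of DoubleTg was -0.048 and within the Msln and Ly6d clusters alone -0.22, the same direction as in TripleTg. Cycling cells, set against other luminal-like cells, had log2 ratios of 0.64 in DoubleTg and -0.26 in TripleTg for the immunosubunits and of 0.36 and -0.12 for Psme1 and Psme2. The median of all genes in the DoubleTg comparison was 0.25, and with TMM scaling its values were 0.31 and 0.03.

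Between genotypes, the log2 ratio of the summed immunosubunits (TripleTg over DoubleTg) was -1.0 in luminal-like cells, but 0.61 in the dendritic-like class, 0.43 in the smooth muscle-like class, 0.31 in the fibroblast-like class, 0.24 in the seminal vesicle-like class and 0.20 in the macrophage-like class. It was -0.28 in the endothelial-like class. With TMM scaling the dendritic-like value was 0.30, beside a median of 0.28 over all genes without it. The immunosubunit share, in contrast to the sum, was lower in TripleTg in smooth muscle-like (23.1 and 20.5%, with overlapping intervals) and macrophage-like cells (34.5 and 31.1%). That of the constitutive members was 0.23 in luminal-like and -0.35 in seminal vesicle-like cells, where the median of all genes was -0.46. With TMM scaling the seminal vesicle-like value was 0.14, so the opposite direction did not hold under that scaling.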

How the results depend on the processing

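No paired analysis was possible because there was 1 library per genotype, and leaving out a replicate was likewise not possible. The Scrublet alternative was not run for results that use TripleTg. Of 94 alternative values for the group results, 53 stayed, 39 moved and 2 reversed, where a ratio or share moved if it left the counting interval of its reported value, however small the step, and a count if it changed by over 1.5 times. For single genes, over the 8 alternatives that keep all luminal-like clusters or leave out the interferon-led ones, 595 of 736 values stayed, 141 moved and none past 1.5-fold reversed, with ranges in luminal-like cells of -1.34 to -1.18 for Psmb8, -1.51 to -1.23 for Psmb9, -0.52 to -0.46 for Psmb10, 1.35 to 1.43 for Psmd8, -0.81 to -0.60 for Psmd5, -0.83 to -0.76 for Psmg3 and 0.47 to 0.59 for Psmd9. Within the Tgm4 and Pbsn clusters alone Psmb10 reversed to 0.29, and Psmb8 was at -0.29, Psmb9 at -0.96, Psmd8 at 1.02, Psmd5 at -0.97 and Psmd9 at -0.01. Within the Msln and Ly6d clusters alone Psmb8 was at -1.74, Psmb9 at -1.81, Psmb10 at -1.07 and Psmd8 at 1.16. The constitutive log2 ratio between genotypes (luminal-like 0.23, basal-like -0.0043, hMETtg-positive epithelial-like 0.08) became 0.18, 0.0066 and 0.067 after thinning. With each cell weighted equally it was 0.19 in luminal-like and 0.014 in basal-like cells, with TMM 0.17 in luminal-like and 0.091 in hMETtg-positive cells, at resolution 0.5 -0.025 in basal-like cells, and with at least 2 hMETtg UMIs 0.019. The constitutive ratio of hMETtg-positive over negative DoubleTg luminal-like cells (0.095) became 0.056 after thinning, 0.031 with equal weights and 0.056 with TMM. The immunosubunit shares (DoubleTg luminal-like 22.1%, TripleTg luminal-like 12.2%, DoubleTg immune-like 43.0%, TripleTg immune-like 32.1%, where the immune-like groups differ in make-up, with 434 T and NK-like cells in DoubleTg and 137 neutrophil-like cells in TripleTg) became 22.7, 12.7 and 46.5% for the first 3 after thinning and 21.5, 11.8 and 45.0% with equal weights, and the DoubleTg immune-like share was 46.5% without Scrublet doublets. Stricter cell limits and every gene with at least 1 UMI each gave 2 members higher, and a minimum of 20 CPM gave 2 lower, since fewer members were counted. The other 4 alternatives, and TMM scaling of the counts in further comparisons, were chosen after seeing the data. Without the top 8% of doublet scores the constitutive ratio was 0.24 in luminal-like cells and 0.11 between hMETtg-positive and negative cells, the immune-like shares were 47.2 and 34.1%, and 2 members were higher. Without the interferon-led clusters the luminal-like shares were 21.1 and 11%, with 2 members higher. In the Tgm4 and Pbsn clusters alone the shares were 15.7 and 16.1%, the constitutive ratio 0.12, 2 members were higher and 7 lower, and the hMETtg ratio reversed to -0.048. In the Msln and Ly6d clusters alone the shares were 22.4 and 10.3%, the constitutive ratio 0.010, 7 members were lower, and the hMETtg ratio reversed to -0.22. The cause of these moves was not tested. Depth limits Psmb11, Psma8 and the classes with few cells.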
